A study of Mus musculus with 34 samples.

Results

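A set of 10 transcription factors of the immediate early response was followed in the left ventricle (LV) of mice after myocardial infarction (MI), namely the Fos family members Fos, Fosb, Fosl1 and Fosl2, the Jun family members Jun, Junb and Jund, the related factor Atf3, and the zinc finger factors Egr1 and Egr2. The members were chosen by gene symbol, with earlier results of these data known. All 10 were found in both deposited expression tables, which hold 14552 and 17406 genes.

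Fos and Jun proteins pair through a leucine zipper to form AP-1, a dimer that binds short DNA elements in promoters and enhancers, whereas Egr proteins bind GC-rich elements through zinc fingers. Growth factors, stretch, oxygen loss and cytokines act through MAP kinases, serum response factor and CREB to switch most of these genes on without new protein synthesis, and their messages are usually short-lived. In the heart they are known as early markers of ischemia and mechanical load. Fosl1 (FRA-1) and Fosl2 (FRA-2) lack the strong transactivation domain of Fos and Fosb, and Jund is known for a steadier level than Jun or Junb.

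The mice were CFW (Swiss Webster) animals without a stated genetic alteration, and the left anterior descending artery was permanently ligated to make the MI. In the first table, 3 libraries titled sham (which carry the stress label "No operation", while the study's methods describe sham-operated hearts) were set beside 3 libraries 4 h post-MI and 4 libraries 24 h post-MI, all without injection, and the ischemic area or its equivalent in sham hearts was sampled. In the second table, 2 sham-operated uninjected hearts 4 h after surgery were set beside infarcted hearts that received Luc or AC modified mRNA (modRNA, an in vitro transcribed message with modified nucleosides) in the border zone immediately after ligation, with 4 libraries of each modRNA at 4 h, 3 at 24 h and 4 at 48 h. Luc, the luciferase message, was the injected control, and the labels do not spell out AC. The age of the animals is not given in the sources used here.

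The start-site windows show which of the searched control elements lie close to the starts of these genes. RefSeq windows on GRCm38.p6, from 250 bases before to 50 after each start, were given for 8 of the 10 members (not for Egr1 or Fosl1), and 7 motifs were searched on both strands. The stretches of 30 bases below were chosen because each holds a binding element of a factor named above, and capitals mark that element.

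Fos, CREB element core 66 bases before the start, chr12:85473811-85473840, plus strand: cagttccgcccagTGACGtaggaagtccat

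Jun, AP-1-like element 45 bases before the start, chr4:95052249-95052278, minus strand: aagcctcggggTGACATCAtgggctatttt

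Egr2, CArG box (the serum response factor element) 72 bases before the start, chr10:67537787-67537816, plus strand: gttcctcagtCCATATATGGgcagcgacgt

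Fosb, Egr element 50 bases before the start, chr7:19310077-19310106, minus strand: gtgacgcaagcGCGGGGGCGggtcccggag

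Fosl2, Egr element 79 bases before the start, chr5:32136382-32136411, plus strand: tccggctgcgcGCGGGGGCGgaagggcgcg

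Among all 32851 windows of the same length, 20.8% held the CREB element core TGACG, which 5 of the 8 members held (Atf3, Egr2, Fos, Fosb and Junb). The Egr element GCGGGGGCG was in 2.91% of windows and in those of Fosb and Fosl2. The AP-1-like element TGACATCA was in 3.62% of windows and, among the members, in that of Jun. A CArG box was in 1.63% of windows and, among the members, in that of Egr2, which has 5 windows for its start sites. TATAAA was in 13.6% of windows and in those of Fos and Junb. The full element TGACGTCA, which contains TGACG, was in 1.79% of windows, and the AP-1 element TGACTCA in 5.2%. Neither was in a member's window. A match describes these letters and not binding, and elements outside these windows were not searched.

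Levels are given in CPM as deposited, the reads of a gene scaled per library, and the scaled totals were not equal between libraries. An estimated 12553519 to 18952669 reads fell on the listed genes in each of the first 10 libraries, and 17091513 to 22192765 in each of the other 24. Reads outside the listed genes are not in these estimates. All 8 cardiomyocyte markers were detected in every group, with summed levels of 54280 to 59326 CPM in sham and 4 h libraries and 24518 to 39657 CPM at 24 h in the first table. The summed level of 9 neutrophil and monocyte markers was 3.63 to 5.24 CPM in the sham libraries, 10.0 to 36.8 CPM at 4 h and 367 to 2072 CPM at 24 h. In bulk tissue, fewer cells of a type and less RNA per cell cannot be told apart, and the part of these cells in the levels below was not tested. In the second table the summed level of 3 atrial markers was 0.945 to 3.02 CPM in sham and 4 h libraries, 23.5 to 353 CPM at 24 h and 4.35 to 95 CPM at 48 h. Whether the sampled tissue differed between these times was not tested. Exons of Fosl1, Jun, Junb and Jund overlap genes on the opposite strand (Ccdc85b, Junos, Prdx2 and Gm11175), and while the library kit keeps strand, its use in the counting is not given in the sources used here, so reads of these pairs may not be told apart.

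At 4 h after MI without injection, 8 of the 10 members were higher than in sham, and Atf3 had the largest fold change of all 12487 genes tested. Across all genes, 1.55% were called higher (limma with Benjamini-Hochberg adjusted p under 0.05), and the median difference of the members was 2.36 in log2(CPM + 1) against -0.03 over all genes. Fos ranked 5th, Fosb 9th and Egr1 19th by fold change. Fosl1 and Jund did not pass the test, although for Fosl1 and the 8 called members all 4 h libraries lay above all sham libraries, a pattern that 10.9% of all genes shared.

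**Figure D1:**
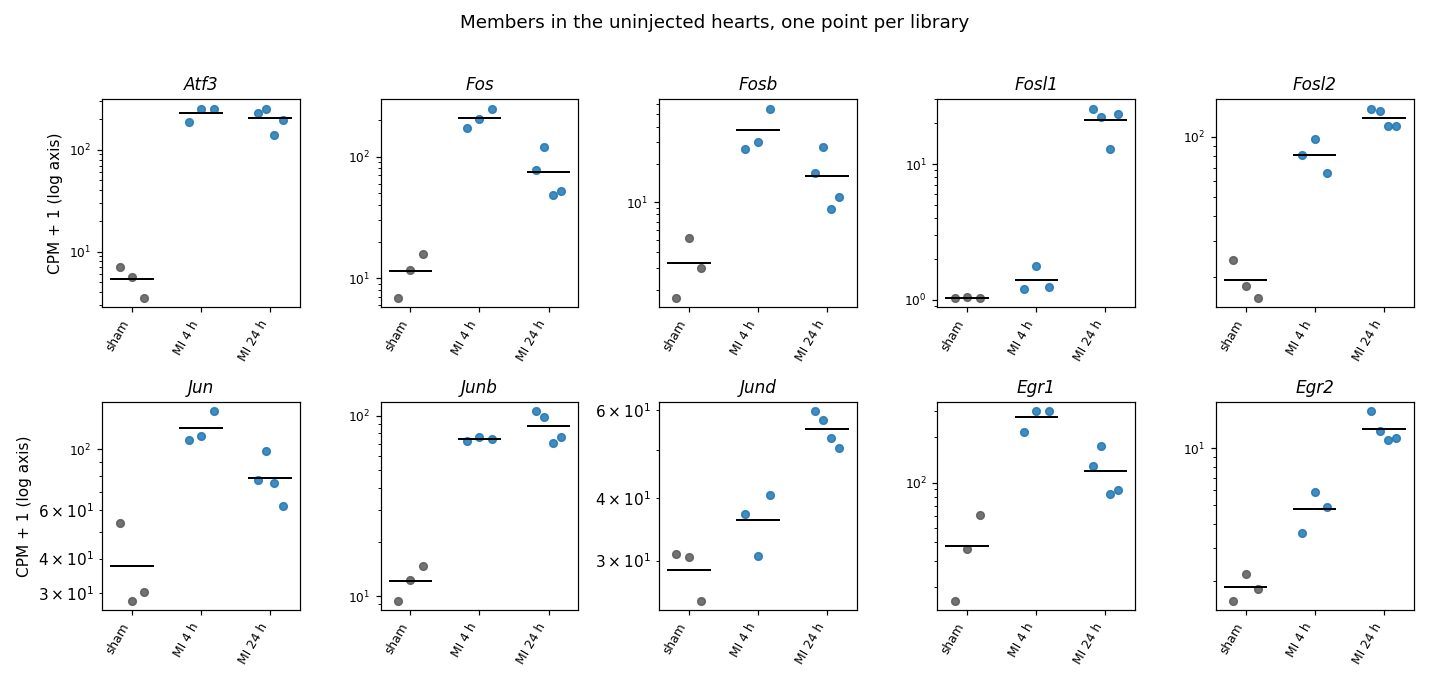
Level of each member in the 10 uninjected libraries (points, CPM + 1 on a log axis that differs between panels), with a black line at the group mean of 3 sham, 3 MI 4 h and 4 MI 24 h libraries. Atf3 sits between 185 and 249 CPM at 4 h against 2.5 to 6.07 CPM in sham, and Fosl1 rises above 10 CPM only in the MI 24 h libraries, between 12 and 24.7 CPM.

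Atf3 (chr1:191170297-191183334, minus strand, GRCm38), a stress-induced factor that can pair with Jun proteins, was at 6.07, 4.64 and 2.5 CPM in the sham libraries D, H and I. It was at 185, 249 and 248 CPM in the 4 h libraries C, D and E, and at 228, 253, 139 and 196 CPM in the 24 h libraries C, D, G and H. All infarcted libraries lay far above all sham libraries, and the ranges at 4 h and 24 h overlapped. The mean at 4 h was 51.6-fold ± 22.7 (SD, n = 3 and 3) above sham, a difference of 5.45 ± 0.27 (SE) in log2(CPM + 1) with limma adjusted p = 9.1e-07. At 24 h the difference from sham was 5.27 ± 0.25 (adjusted p = 7.6e-08), and the 24 h and 4 h levels differed by -0.18 ± 0.25, with a 95% interval of -0.72 to 0.37 (adjusted p = 0.55).

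Fos (chr12:85473901-85477271, plus strand), the founding AP-1 subunit, whose promoter element is printed above, was at 5.89, 10.8 and 14.7 CPM in sham, at 172, 203 and 247 CPM at 4 h, and at 76.5, 119, 47.2 and 51.5 CPM at 24 h. The 3 groups did not overlap, with the highest level at 4 h. The rise at 4 h was 4.25 ± 0.35 (adjusted p = 5.2e-05), and from 4 h to 24 h Fos fell by 1.56 ± 0.33 on the log2 scale (adjusted p = 0.0015). At 24 h it was still 7.04-fold ± 4.33 (SD) above sham. Fosb, its close relative with a known role in lasting responses, was at 0.723, 4.15 and 1.98 CPM in sham, at 25.7, 29.3 and 54.6 CPM at 4 h, and at 16.1, 26.6, 7.73 and 10.0 CPM at 24 h. Both infarct groups lay above sham and overlapped each other. Fosb rose by 3.58 ± 0.47 at 4 h (adjusted p = 0.002) and fell by 1.28 ± 0.44 from 4 h to 24 h (adjusted p = 0.022).

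Fosl1 (chr19:5447698-5455939, plus strand) had the opposite course. It was at 0.0362, 0.0403 and 0.0325 CPM in the sham libraries, about 1 read in each, at 0.194, 0.761 and 0.246 CPM at 4 h, and at 24.7, 21.4, 12 and 22.5 CPM at 24 h. Each group lay above the one before it without overlap. From 4 h to 24 h the mean rose 50.4-fold ± 41.9 (SD, n = 4 and 3), a difference of 3.89 ± 0.23 (adjusted p = 5.7e-07), and 47 of the 12487 genes rose more. Against the 3 reads of the sham group the 4 h level was 10.2-fold higher, with a 95% counting interval of 3.14 to 52.6, and the 24 h level 565-fold higher, with an interval of 193 to 2740. These intervals rest on estimated reads and leave out the spread between mice. A gene is listed only with at least 1 read in every library, so 1 read is the lowest sham value possible here. The intervals do not allow for this rule, so both ratios may be too low and their upper limits are not secure. On the log2(CPM + 1) scale, which compresses levels this low, the 4 h difference was 0.41 ± 0.24 (adjusted p = 0.44) and became a call with a pseudocount of 0.1 (1.70, adjusted p = 0.048).

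Fosl2, like Fosl1, was highest at 24 h, but from a sham level within the range of the other AP-1 genes. It was at 23.3, 16.9 and 14.7 CPM in sham, at 80.2, 95.7 and 64.8 CPM at 4 h, and at 137, 133, 111 and 112 CPM at 24 h. The groups did not overlap. The rise was 2.08 ± 0.18 at 4 h (adjusted p = 6.8e-05), and a further 0.62 ± 0.17 followed to 24 h (adjusted p = 0.0066).

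The Jun family split by time. Jun, the main partner of Fos, was at 53.1, 27.1 and 29.2 CPM in sham, at 108, 111 and 137 CPM at 4 h, and at 76.6, 97.4, 74.6 and 61.4 CPM at 24 h. It was highest at 4 h with no overlap between groups, and the differences were 1.73 ± 0.23 for 4 h against sham (adjusted p = 0.0026) and -0.62 ± 0.22 for 24 h against 4 h (adjusted p = 0.028). Junb, which can restrain Jun activity, was at 8.46, 11.3 and 13.7 CPM in sham, at 71.9, 75.1 and 73.8 CPM at 4 h, and at 105, 98.2, 69.6 and 75.6 CPM at 24 h. Its infarct groups overlapped, the rise at 4 h was 2.64 ± 0.18 (adjusted p = 1.4e-05), and 24 h and 4 h differed by 0.22 ± 0.17, with a 95% interval of -0.15 to 0.59 (adjusted p = 0.27). Jund was at 29.9, 29.4 and 24.0 CPM in sham, at 36.3, 29.7 and 39.5 CPM at 4 h, and at 58.8, 56.4, 51.9 and 49.4 CPM at 24 h. Its sham and 4 h levels overlapped (difference 0.33 ± 0.13, adjusted p = 0.24), and with weights per library this difference became a call (0.32, adjusted p = 0.041). The 24 h level of Jund was 0.61 ± 0.12 above that at 4 h (adjusted p = 0.001).

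The Egr pair also parted. Egr1 was at 15.3, 34.9 and 60.1 CPM in sham, at 218, 299 and 297 CPM at 4 h, and at 127, 175, 83.0 and 87.7 CPM at 24 h. The groups did not overlap, and the sham libraries were the most widely spread on the log scale. Egr1 rose by 3.03 ± 0.41 at 4 h (adjusted p = 0.0026) and fell by 1.24 ± 0.38 to 24 h (adjusted p = 0.014). Egr2, best known from myelination and lymphocytes, was at 0.579, 1.17 and 0.812 CPM in sham, at 2.59, 4.88 and 3.91 CPM at 4 h, and at 14.6, 11.2, 10.1 and 10.3 CPM at 24 h. It rose by 1.36 ± 0.20 at 4 h (adjusted p = 0.0051) and by a further 1.40 ± 0.19 to 24 h (adjusted p = 7.5e-05).

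Against sham, all 10 members were called higher 24 h post-MI, where 35.6% of all genes were called higher and 30.3% lower. For all 10 the groups did not overlap, as for 35.3% of all genes. The median difference of the members was 2.70 against 0.04 over all genes. By member, beside Atf3, the differences were 4.31 for Fosl1, 2.86 for Junb, 2.76 for Egr2, 2.71 for Fosl2, 2.68 for Fos, 2.29 for Fosb, 1.79 for Egr1, 1.11 for Jun and 0.94 for Jund. Between 24 h and 4 h, 4 members rose (Fosl1, Fosl2, Jund and Egr2) and 4 fell (Fos, Fosb, Jun and Egr1), among 37.2% and 26.7% of all genes. The groups did not overlap for the 4 that rose and for 3 of those that fell, and 37% and 25.1% of all genes had such a gap. The falls of Fosb and Jun rested on single libraries: without the 24 h library H they were -1.15 and -0.51 (adjusted p = 0.059 and 0.076), and without the 4 h library E -0.96 and -0.51 (adjusted p = 0.11 for each). A refit with the library letter as a replicate block kept only the letters that both groups share, C and D. The other libraries, among them 4 h E and 24 h G and H, were left out. The same differences were then -0.39 and -0.34 (adjusted p = 0.065 and 0.062), and Junb was called higher (0.46, adjusted p = 0.015). The effect of the block and that of the libraries left out cannot be told apart here. No source used here says whether the letters pair the libraries. Library G stood apart at 24 h. It was the lowest of the 4 in 8 of the 10 members and also had the lowest neutrophil and monocyte sum, 367 CPM, and the highest cardiomyocyte sum, 39657 CPM, in that group.

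**Figure D2:**
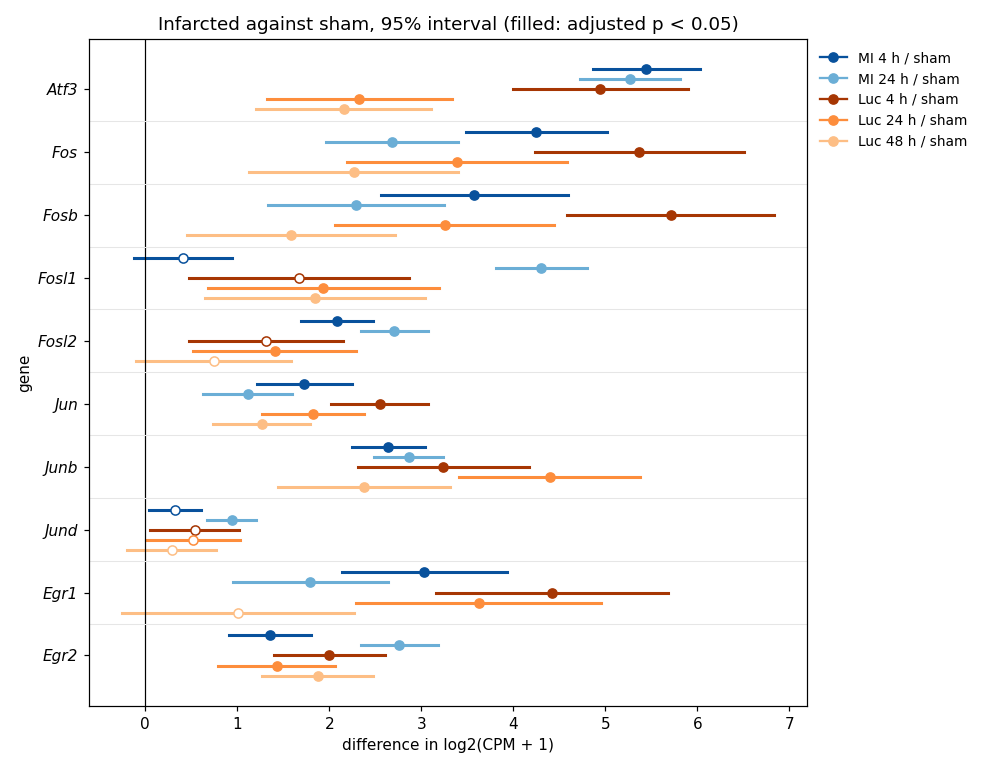
Difference from the sham libraries of the same table in log2(CPM + 1) for each member (points) with its 95% interval (lines), for uninjected MI at 4 h and 24 h and Luc modRNA at 4, 24 and 48 h. Filled points passed limma's adjusted p under 0.05, and open points did not. Fosl1 is near 0.41 at MI 4 h and at 4.31 at MI 24 h, and the Luc differences of Atf3 go from 4.95 at 4 h to 2.16 at 48 h.

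Dividing by exon length (GENCODE M21) lets members be compared with each other. The summed level of the 4 Fos family genes was 8.38 ± 1.63 CPM per kb in sham, 120 ± 20.5 at 4 h and 68.6 ± 21.1 at 24 h (SD, n = 3, 3 and 4). Fos made up 57.3% ± 14.5 of it in sham, 81.5% ± 1.04 at 4 h and 49.5% ± 6.87 at 24 h. Fosl1 made up 0.18% ± 0.141 at 4 h and 16.2% ± 4.28 at 24 h, so at 24 h Fosl1 and Fosl2 (28.8% ± 5.92) together took a share close to that of Fos. The sum of the 3 Jun family genes was 34.3 ± 4.39 CPM per kb in sham, 98.9 ± 7.33 at 4 h and 105 ± 15.2 at 24 h. Within it Jund held the largest share in sham (48.8% ± 4.97), and Junb at 4 h (41.3% ± 3.07) and at 24 h (45.7% ± 3.35). The shares carry no test.

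**Figure D3:**
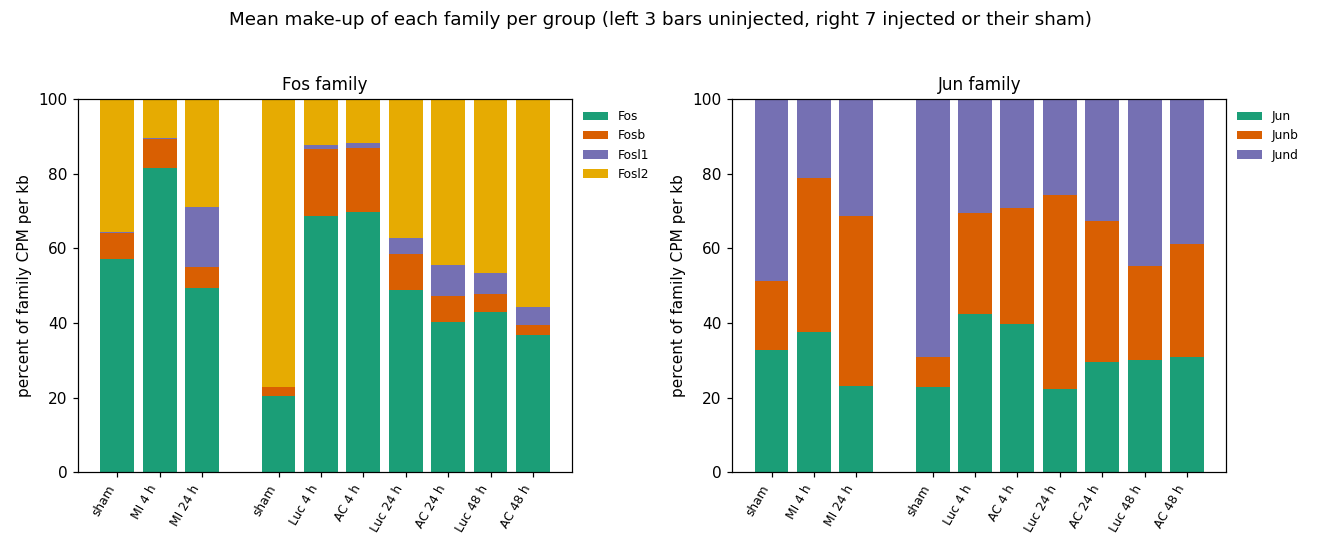
Mean share of each gene in the summed CPM per kb of the Fos family (left panel) and Jun family (right panel), as stacked bars in percent for the 3 uninjected groups and the 7 groups of the second table, without error bars. Fos takes 81.5% of its family at MI 4 h and 49.5% at MI 24 h, and Fosl2 takes 77.3% in the sham hearts of the second table.

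In the hearts injected with Luc modRNA, members also led the 4 h response. Of the 10 members, 7 were called higher than in sham at 4 h, among 1.25% of all 12555 genes tested, and Fosb, Fos, Atf3 and Egr1 ranked 1st, 2nd, 4th and 5th by fold change. At 24 h 9 members were called higher, among 25.3% of all genes, and at 48 h 7, among 13.7%. All Luc libraries lay above both sham libraries for 10 members at 4 h, 10 at 24 h and 7 at 48 h, against 17.2%, 37.4% and 19.2% of all genes. All 3 comparisons share the same 2 sham libraries. Titles of the 24 h libraries carry a Br prefix that the sham, 4 h and 48 h titles lack, and the labels do not explain it. Nor do the labels say whether the libraries of each time were handled together, so time and any such handling cannot be told apart. These sham hearts were uninjected and taken 4 h after surgery. Infarct and injection therefore cannot be told apart in these differences, nor, at 24 h and 48 h, can infarct and time since surgery. The tables were normalized separately and no test was made between them.

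**Figure D4:**
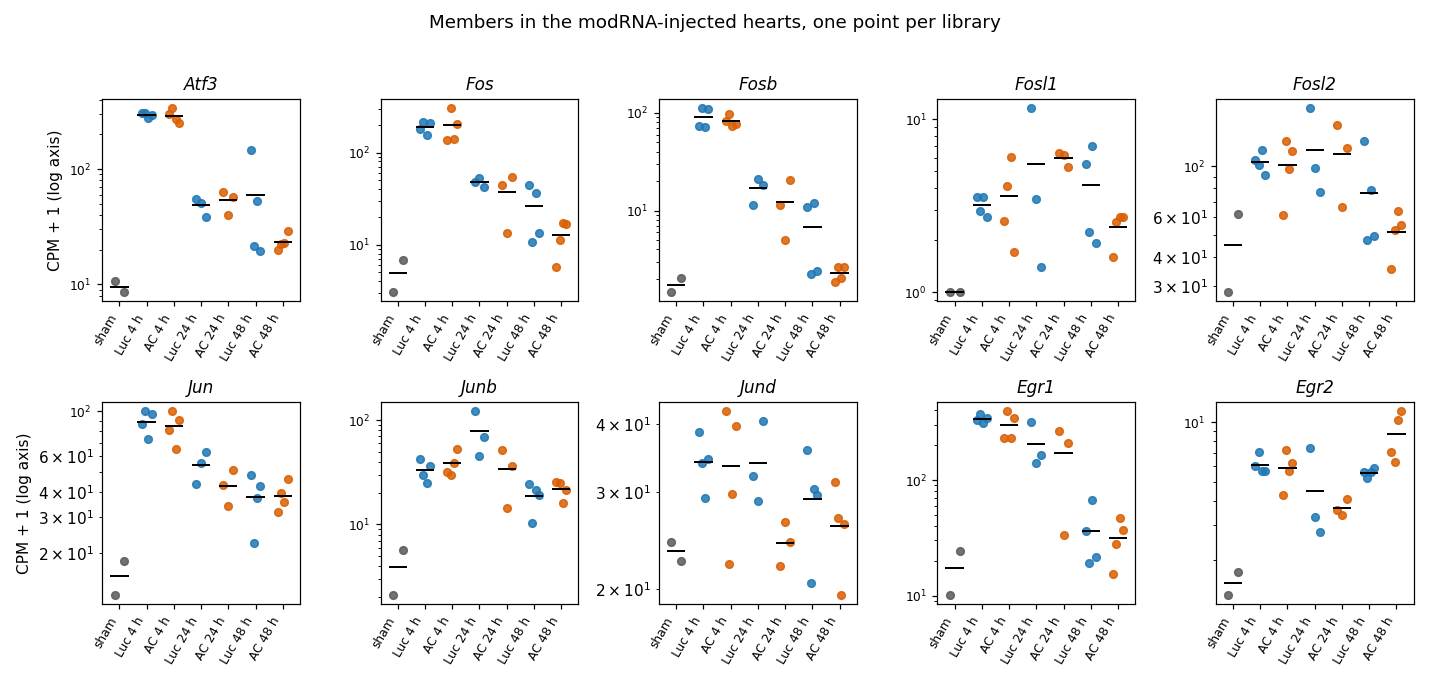
Level of each member in the 24 libraries of the second table (points, CPM + 1 on a log axis that differs between panels), with a black line at the group mean of 2 sham libraries (gray) and of Luc (blue) and AC (orange) libraries at 4, 24 and 48 h. Atf3 sits between 251 and 335 CPM in the 8 libraries at 4 h and between 37.6 and 61.8 CPM in the 6 libraries at 24 h.

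Atf3 was at 9.61 and 7.55 CPM in the sham libraries and at 302, 302, 274 and 293 CPM in the Luc libraries 1 to 4 at 4 h. At 24 h it was at 54.3, 50 and 37.6 CPM (A, C and D), and at 48 h at 145, 20.7, 51.3 and 18.6 CPM (1 to 4). The 4 h libraries lay above all later ones, and the 48 h libraries were widely spread around the 24 h level. The difference from sham was 4.95 ± 0.46 at 4 h (adjusted p = 1.2e-06), 2.33 ± 0.49 at 24 h (adjusted p = 0.00096) and 2.16 ± 0.46 at 48 h (adjusted p = 0.0014, and 0.063 when the 2 groups were fitted alone). From 4 h to 24 h Atf3 fell by 2.62 ± 0.41 (adjusted p = 7.3e-05), the largest fall of all 12555 genes tested. In the uninjected hearts Atf3 was at 139 to 253 CPM at 24 h, and this contrast between the tables was not tested. The neutrophil and monocyte sum was 68.8 to 124 CPM in these Luc libraries at 24 h and 367 to 2072 CPM in the uninjected ones, and the atrial sum 45.5 to 190 CPM and 1.61 to 3.01 CPM.

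Fos was at 2.05 and 5.84 CPM in sham, at 181, 216, 156 and 206 CPM at 4 h, at 47.4, 52.3 and 41.3 CPM at 24 h, and at 43.1, 9.79, 35.5 and 12.3 CPM at 48 h. All Luc libraries lay above sham, by 5.37 ± 0.55 at 4 h, 3.39 ± 0.58 at 24 h and 2.26 ± 0.55 at 48 h (adjusted p = 2.9e-06, 0.00015 and 0.0037), and the last was lost without sham library 1 (1.68, adjusted p = 0.10). Fos fell by 1.98 ± 0.49 from 4 h to 24 h (adjusted p = 0.0037), and the fall of 1.12 ± 0.49 from 24 h to 48 h did not pass the test (adjusted p = 0.066). Fosb was at 0.456 and 1.02 CPM in sham, at 72.8, 110, 70.9 and 108 CPM at 4 h, at 10.5, 19.9 and 17.3 CPM at 24 h, and at 9.93, 1.23, 10.9 and 1.38 CPM at 48 h. Its libraries at 48 h formed a high pair (1 and 3) and a low pair (2 and 4), the same pairs as for Atf3 and Fos. Fosb had a mean 123-fold ± 72.4 (SD, n = 4 and 2) above sham at 4 h, a difference of 5.71 ± 0.55 (adjusted p = 1.2e-06). It fell by 2.46 ± 0.48 to 24 h (adjusted p = 0.00068) and by 1.68 ± 0.48 from 24 h to 48 h (adjusted p = 0.0083, and 0.057 when the 2 groups were fitted alone).

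Fosl1 had no read in either sham library of the second table. It was at 2.56, 1.95, 2.56 and 1.72 CPM at 4 h, at 10.6, 2.47 and 0.399 CPM at 24 h, and at 4.47, 1.24, 5.96 and 0.933 CPM at 48 h with Luc. The 4 h libraries were alike, whereas those at 24 h held both the lowest and the highest level among all infarcted libraries of this table. Set against a floor of 3 reads per sham library (0.0965 CPM), the mean was at least 22.8-fold higher at 4 h, 46.4-fold at 24 h and 32.7-fold at 48 h. The fitted differences at 24 h and 48 h passed the test (adjusted p = 0.017 and 0.019) and that at 4 h did not (1.67 ± 0.58, adjusted p = 0.18). The 4 h difference became a call with a pseudocount of 0.1 (4.50, adjusted p = 0.003) or with the 2 groups fitted alone (adjusted p = 0.00032). Without the 24 h library A, the 24 h difference was 1.14 in place of 1.94 (adjusted p = 0.11), and without either sham library its adjusted p was 0.11 or 0.066. At 48 h the call was lost without Luc library 1 or 3 (1.64 and 1.52, adjusted p = 0.051 and 0.06) or without either sham library (adjusted p = 0.10 and 0.083). Fosl2 was at 27.1 and 61.0 CPM in sham, at 105, 99.7, 117 and 90.8 CPM at 4 h, at 178, 97.2 and 76.2 CPM at 24 h, and at 127, 46.4, 78.0 and 48.4 CPM at 48 h. Its sham libraries lay further apart than those of the Luc group at 4 h, and it passed the test at 24 h alone (1.41 ± 0.43, adjusted p = 0.014), a call that was lost without the 24 h library A (1.06, adjusted p = 0.075) or sham library 1 (0.84, adjusted p = 0.28). At 4 h its difference of 1.31 ± 0.41 had adjusted p = 0.12, and without sham library 2 it was 1.88 (adjusted p = 0.047).

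Jun was at 11.5 and 17.4 CPM in sham, at 85.6, 99.3, 71.8 and 95.4 CPM at 4 h, at 43.0, 54.5 and 62.0 CPM at 24 h, and at 47.7, 21.4, 36.6 and 41.8 CPM at 48 h. Every infarcted library lay above both sham libraries, and the differences from sham were 2.55 ± 0.26, 1.82 ± 0.27 and 1.27 ± 0.26 at the 3 times (adjusted p = 2.4e-06, 3e-05 and 0.00083). The 48 h call was lost with weights per library (0.94, adjusted p = 0.063). The fall from 4 h to 24 h was 0.72 ± 0.23 (adjusted p = 0.018), and it was lost without the 4 h library 2 (-0.66, adjusted p = 0.051) or the 24 h library A (-0.58, adjusted p = 0.10). The fall of 0.56 ± 0.23 from 24 h to 48 h was at the threshold (adjusted p = 0.05 after rounding), where the median of all genes was -0.25, and a rescaling that removed most of that shift gave -0.31 (adjusted p = 0.28). Equal-total rescaling gave -0.09 (adjusted p = 0.77), and the call was lost in 10 of 15 refits. Leaving out the 24 h library C or D gave -0.53 and -0.44 (adjusted p = 0.12 and 0.19), and leaving out the 48 h library 2 or 3 gave -0.33 and -0.57 (adjusted p = 0.21 and 0.065).

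Junb was the one member called higher at 24 h than at 4 h under Luc. It was at 1.11 and 4.66 CPM in sham, at 41.5, 28.8, 23.7 and 35.3 CPM at 4 h, at 122, 44.6 and 68.1 CPM at 24 h, and at 23.4, 9.32, 20.3 and 18.2 CPM at 48 h. All 24 h libraries lay above all other Luc and sham libraries. Against sham, Junb was 3.24 ± 0.45, 4.40 ± 0.48 and 2.37 ± 0.45 higher at the 3 times (adjusted p = 0.00021, 8e-07 and 0.0005). It rose by 1.16 ± 0.40 from 4 h to 24 h (adjusted p = 0.029) and fell by 2.02 ± 0.40 from 24 h to 48 h (adjusted p = 0.0005). The rise was lost without the 4 h library 2 or 3 (1.11 and 1.02, adjusted p = 0.063 and 0.08) or the 24 h library A or D (0.78 and 1.20, adjusted p = 0.19 and 0.06). Its call was also lost with median-ratio rescaling (0.987, adjusted p = 0.06) and with equal-total rescaling (0.945, adjusted p = 0.072). Jund stayed between 19.5 and 39.6 CPM in all Luc libraries, against 23.4 and 21.5 CPM in sham, and passed no test in this table. Its difference from sham at 4 h was 0.54, with a 95% interval of 0.05 to 1.02 (adjusted p = 0.31).

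Egr1 was at 9.16 and 23.4 CPM in sham, at 327, 371, 309 and 340 CPM at 4 h, at 314, 139 and 164 CPM at 24 h, and at 35.5, 18, 65.7 and 20.4 CPM at 48 h. It was above sham at 24 h and near sham at 48 h, where the groups overlapped. The difference from sham was 4.42 ± 0.61 at 4 h (adjusted p = 0.00019), 3.62 ± 0.64 at 24 h (adjusted p = 0.00021) and 1.0 ± 0.61 at 48 h (adjusted p = 0.23). The difference between 24 h and 4 h, -0.80 ± 0.54 (adjusted p = 0.27), became a call with weights per library (-0.99, adjusted p = 0.021) or with the 2 groups fitted alone (adjusted p = 0.018). Egr1 fell by 2.62 ± 0.54 from 24 h to 48 h (adjusted p = 0.00072). Egr2 was at 0.326 and 0.73 CPM in sham, at 4.96, 6.03, 4.67 and 4.64 CPM at 4 h, at 6.42, 2.3 and 1.76 CPM at 24 h, and at 4.56, 4.21, 4.58 and 4.87 CPM at 48 h. Unlike Egr1, Egr2 passed the test against sham at all 3 times, with differences of 2.00 ± 0.29, 1.43 ± 0.31 and 1.87 ± 0.29 (adjusted p = 0.00032, 0.0012 and 6.7e-05). No change of Egr2 between times passed the test (-0.57 ± 0.26 from 4 h to 24 h, adjusted p = 0.091, and 0.45 ± 0.26 from 24 h to 48 h, adjusted p = 0.17). Both depended on the fit. The first was called with weights per library (-0.75, adjusted p = 0.01), with median-ratio rescaling (-0.70, adjusted p = 0.046) and with equal-total rescaling (-0.80, adjusted p = 0.047), and the second with equal-total rescaling (0.89, adjusted p = 0.024). Without the 24 h library A, the highest of its group, Egr2 was lower at 24 h than at 4 h (-1.0, adjusted p = 0.0028) and higher at 48 h than at 24 h (0.88, adjusted p = 0.0044).

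Between times in the Luc hearts, 1 member rose and 4 fell from 4 h to 24 h, among 24.5% and 7.8% of all genes. From 24 h to 48 h 0 rose and 4 fell, among 9.32% and 32.6%. The groups did not overlap for the 1 that rose and the 4 that fell to 24 h (32.9% and 15.5% of all genes), and at 48 h 0 members lay fully above and 2 fully below their 24 h level (8.6% and 32.4%). The median of all genes moved by 0.14 and -0.25 in the same comparisons, and by -0.06 and 0.19 with equal-total rescaling. Library 1 at 48 h held the highest level of 6 members, had a neutrophil and monocyte sum of 515 CPM against 144 to 265 CPM in the other 3, and had the highest cardiomyocyte sum of its group, 54140 CPM. Without it, 7 members were called lower at 48 h than at 24 h, and the difference in Atf3 was -0.76 (adjusted p = 0.023) in place of -0.17 ± 0.41 (adjusted p = 0.76), in Fos -1.46 (adjusted p = 0.022, and 0.036 without library 3) and in Fosl2 -0.96 (adjusted p = 0.032). The rise of Fosb against sham at 48 h, 1.58 ± 0.55 (adjusted p = 0.032), was lost without the 48 h library 1 (1.22, adjusted p = 0.097), without library 3 (1.18, adjusted p = 0.10) and without either sham library (1.35 and 1.82, adjusted p = 0.21 and 0.071). Without sham library 1, 4 members were called at 48 h in place of 7.

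No member differed between AC and Luc modRNA at any time by limma. At 4 h 0 of 10 members were called, where 0.00796% of all genes were called, and the 1 gene called was Asah1, which encodes acid ceramidase (8.20 ± 0.29, adjusted p = 6.2e-15). At 24 h 0 members were called and Asah1 was again the 1 gene called (2.93 ± 0.34, adjusted p = 0.00016). At 48 h 0 members were called among 15.3% of all genes. At an unadjusted p under 0.05 there were 0 members at 4 h, 2 at 24 h and 3 at 48 h, where 131, 599 and 3808 of all 12555 genes passed that level, and no other tool was run.

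**Figure D5:**
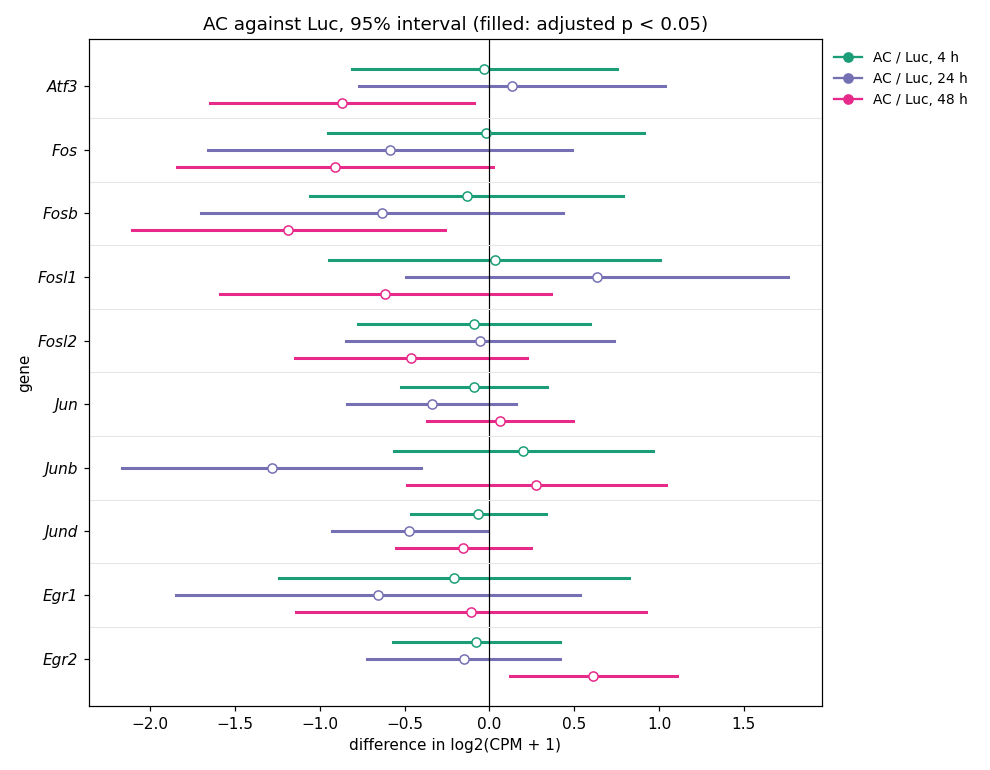
Difference between AC and Luc modRNA in log2(CPM + 1) for each member (points) with its 95% interval (lines) at 4, 24 and 48 h. All points are open, since none passed limma's adjusted p under 0.05. The points at 4 h lie between -0.21 and 0.20, and that of Fosb at 48 h is at -1.19.

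At 4 h the AC libraries spanned the range of the Luc libraries for Atf3, Fos and Egr1. Atf3 was at 297, 335, 272 and 251 CPM in the AC libraries 1 to 4, and its difference from Luc was -0.03, with a 95% interval of -0.81 to 0.75. Fos was at 137, 300, 140 and 205 CPM and Egr1 at 229, 395, 229 and 346 CPM, more widely spread than under Luc. The 95% intervals of their differences from Luc ran from -0.95 to 0.91 for Fos and from -1.24 to 0.82 for Egr1. Of the other 7 members, Junb had the largest difference, 0.20, with an interval of -0.56 to 0.96. Fosl1 was at 1.59, 3.13, 5.03 and 0.715 CPM under AC, a wider range than under Luc. The red cell sum was 1465 to 6326 CPM in these AC libraries against 1033 to 1567 CPM in the Luc libraries.

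At 24 h Junb had the largest difference among the members. It was at 50.9, 13.2 and 35.3 CPM under AC (A, C and D) against 122, 44.6 and 68.1 CPM under Luc, and the groups overlapped. The difference was -1.28 ± 0.43, with an unadjusted p of 0.0062 by limma and adjusted p = 0.88. The AC minus Luc difference of Junb at 24 h was 1.48 ± 0.56 lower than that at 4 h (adjusted p = 1). Jund was at 21.0, 25.5 and 23.4 CPM under AC, below all 3 Luc libraries (difference -0.47 ± 0.22, adjusted p = 0.99), as were 6.92% of all genes. Fosl1 was at 5.37, 5.24 and 4.28 CPM under AC, close together, where the Luc libraries ran from 0.399 to 10.6 CPM, and the difference was 0.64 ± 0.54 (adjusted p = 0.99). Fosl2 and Jun differed by -0.05 ± 0.38 and -0.34 ± 0.24 (adjusted p = 1 and 0.99). The AC library C was the lowest of its group in 8 members, among them Fos at 12.5 CPM against 43.0 and 53.2 CPM, and Egr1 at 32.6 CPM against 266 and 208 CPM. That library had a neutrophil and monocyte sum of 346 CPM against 74.6 and 111 CPM, and an atrial sum of 23.5 CPM against 353 and 118 CPM.

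At 48 h Fosb was at 0.842, 1.61, 1.03 and 1.63 CPM under AC (1, 2, 4 and 5), close to the low pair of the Luc libraries and below the high pair. Its difference from Luc was -1.19 ± 0.45, with a 95% interval of -2.11 to -0.26 (adjusted p = 0.074). Atf3 was at 19.0, 21.3, 21.7 and 27.8 CPM (difference -0.87 ± 0.38, adjusted p = 0.12), with all 4 libraries near the lower Luc pair of 18.6 and 20.7 CPM. Both became calls when a low Luc library was left out: without Luc library 2 the differences were -1.59 for Fosb and -1.19 for Atf3 (adjusted p = 0.019 and 0.035), and without library 4 they were -1.55 and -1.24 (adjusted p = 0.016 for each). Leaving out a high Luc library made them smaller, -0.82 and -0.28 without library 1 and -0.78 and -0.77 without library 3, and with weights per library they were -0.26 and -0.04 (adjusted p = 0.56 and 0.91). Egr2 went the other way. It was at 6.07, 5.27, 9.22 and 10.4 CPM under AC, above all 4 Luc libraries (difference 0.61 ± 0.24, adjusted p = 0.082), as were 15.5% of all genes, and with weights per library it was called (0.88, adjusted p = 0.005). The summed level of 5 fibroblast markers was 1208 to 1964 CPM under AC and 718 to 1070 CPM under Luc at 48 h (3 of 5 called higher), and that of the 8 cardiomyocyte markers 28635 to 36909 CPM and 39179 to 54140 CPM (3 of 8 called lower). Neither range overlapped, and the part of these cells in the differences of the members was not tested. Fos was at 4.67, 10.3, 16.3 and 15.7 CPM under AC, within or below the Luc range (difference -0.91 ± 0.45, adjusted p = 0.17). The 95% intervals were -0.37 to 0.49 for Jun, -0.55 to 0.24 for Jund and -1.14 to 0.92 for Egr1. With weights per library Jun was called higher under AC (0.56, adjusted p = 0.031) in place of 0.06 ± 0.21 (adjusted p = 0.87). Over all genes the AC minus Luc median was 0.14 at 48 h. In neither test of whether the AC minus Luc difference changed, from 4 h to 24 h or from 4 h to 48 h, was a member called, among 0.00796% and 3.35% of all genes. At an unadjusted p under 0.05 there were 1 and 0 members.

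AC groups were not tested against sham, and the means of Egr2, Junb and Egr1 are given beside those of Luc. Against sham means of 0.528 CPM for Egr2 and 2.89 CPM for Junb, Egr2 averaged 7.75 ± 2.47 CPM under AC and 4.55 ± 0.27 CPM under Luc at 48 h (SD, n = 4 each), and Junb averaged 21.1 ± 4.40 CPM and 17.8 ± 6.04 CPM. Egr1 averaged 30.7 ± 13.4 CPM under AC and 34.9 ± 21.9 CPM under Luc at 48 h, against 16.3 CPM in sham. These levels overlapped between the modRNAs for Junb and Egr1 but not for Egr2.

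The Fos family in the second table was mostly Fosl2 in sham and mostly Fos at 4 h. Fos made up 20.5% ± 2.7 of the summed CPM per kb in sham and 68.6% ± 1.8 under Luc at 4 h, and Fosl2 77.3% ± 2.61 and 12.3% ± 2.86 (SD, n = 2 and 4). By 48 h Fos was at 42.9% ± 5.14 and Fosl2 at 46.5% ± 9.68 under Luc, and Fos at 36.9% ± 7.36 and Fosl2 at 55.6% ± 7.49 under AC. Junb made up 52.1% ± 13.6 of the Jun family under Luc at 24 h and 37.9% ± 15.0 under AC (SD, n = 3 each).

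Other immediate early genes also rose at 4 h. This gene list and those that follow were chosen with earlier results of these data known, so their counts are a description. Of 15 tested in the uninjected hearts, 12 were higher 4 h post-MI and 0 lower (median 2.43 against -0.03 over all genes), and 14 were higher at 24 h, among 35.6% of all genes. Zfp36, which encodes an mRNA decay factor, rose by 3.22 ± 0.21 at 4 h (adjusted p = 1e-05). Cyr61, a matricellular protein gene, rose by 3.10 ± 0.13 (adjusted p = 3.5e-07), the nuclear receptor gene Nr4a1 by 2.90 ± 0.45 (adjusted p = 0.0063) and Myc by 2.76 ± 0.16 (adjusted p = 3e-06). Egr3 had a difference of 0.26 ± 0.19 at 4 h (adjusted p = 0.55). Under Luc at 4 h, 11 of 15 were higher and 0 lower (median 1.76 against 0.02), led by Arc (3.12 ± 0.51, adjusted p = 0.0013), Zfp36 (3.01 ± 0.45, adjusted p = 0.0005), Btg2 (2.81 ± 0.41, adjusted p = 0.00032) and Nr4a1 (2.46 ± 0.51, adjusted p = 0.01). At 48 h 1 of 15 was higher and 2 lower under AC than under Luc, among 12.1% and 3.27% of all genes.

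Among bZIP factors that pair or compete with AP-1, 9 were tested in the uninjected hearts, and 2 were higher and 1 lower at 4 h. The small Maf genes Maff and Mafk rose by 2.14 ± 0.27 and 1.13 ± 0.13 (adjusted p = 0.0014 and 0.001), and Maf fell by 0.54 ± 0.12 (adjusted p = 0.042). At 24 h 5 were higher and 0 lower, among 35.6% and 30.3% of all genes. Under Luc at 4 h, 0 of 10 passed limma's test, with 6 at an unadjusted p under 0.05.

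The genes that carry the signal to these promoters did not pass the test at 4 h. Of 15 MAP kinases, their activators, Srf and its ternary complex partners, 0 were called at 4 h post-MI and 0 under Luc at 4 h by limma (medians -0.04 and 0.02), with 1 and 2 at an unadjusted p under 0.05, and 3 were higher and 5 lower at 24 h without injection, among 35.6% and 30.3% of all genes. These kinases are known to be controlled by phosphorylation, which mRNA levels do not show. Of the Egr corepressor genes Nab1 and Nab2, 0 of 2 were called at 4 h in either table by limma (2 and 1 at an unadjusted p under 0.05), and both were higher at 24 h without injection (0.50 ± 0.09 and 1.47 ± 0.13, adjusted p = 0.00037 and 3.5e-06), values named after they were seen.

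Of 13 genes known to be controlled by AP-1, 6 were higher 4 h post-MI and all 13 at 24 h, among 1.55% and 35.6% of all genes, with median differences of 1.02 and 4.82 against -0.03 and 0.04 over all genes. Since this list too was chosen with earlier results known, these counts are not independent evidence, and AP-1 activity was not tested. Il6, the cytokine gene, rose by 4.52 ± 0.24 at 4 h (adjusted p = 1.5e-06) and ranked 2nd of all genes after Atf3. The monocyte chemokine gene Ccl2 rose by 2.59 ± 0.19 (adjusted p = 1.8e-05) and the urokinase receptor gene Plaur by 2.03 ± 0.29 (adjusted p = 0.004). Under Luc at 4 h 5 of 13 were higher, led by Ccl2 (4.20 ± 0.51, adjusted p = 4.4e-05), Il6 (3.50 ± 0.68, adjusted p = 0.0059), Hbegf (1.99 ± 0.42, adjusted p = 0.012) and Plaur (1.96 ± 0.35, adjusted p = 0.0031). At 48 h 4 of 13 were higher under AC than under Luc and 0 lower, among 12.1% and 3.27% of all genes. In the same comparisons the 9 neutrophil and monocyte markers had 0 calls 4 h post-MI by limma (3 at an unadjusted p under 0.05), 9 higher at 24 h, and 4 higher under Luc at 4 h, and 2 of 3 red cell markers were higher 4 h post-MI (Hbb-bs 1.58 ± 0.29, Hba-a1 1.28 ± 0.27).

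The genes whose pattern was most like that of a member were found by the mean absolute difference of standardized log2(CPM + 1) over libraries, where genes under a mean of 10 CPM were left aside. Over the 10 uninjected libraries these were Socs3, Il6 and Cebpd for Atf3 (0.0897 to 0.126, where the median over 7687 genes was 1.14), Slfn4, Tpd52 and Clic4 for Fosl1 (0.042 to 0.0572), Nr4a1, Zfp36 and Rrad for Egr1 (0.216 to 0.266), and Tceal9, Emp1 and Emcn for Jund (0.126 to 0.147). Over the 24 libraries of the second table they were Otud1, Btg2 and Id2 for Atf3 (0.26 to 0.296), Zfp36, Socs3 and Rrad for Egr1 (0.183 to 0.259), Atf4 and Ier3 for Fosl1 (0.453 and 0.454), and Anapc11, Alad and Cdc34 for Jund (0.481 to 0.492). Zfp36 and Rrad were in the list of Egr1 in both tables. The likeness is a description, since all genes share the same libraries.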

How the data were processed

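RNA-seq of mouse LV was analysed in 34 libraries. For the first table, the study's methods describe single-end reads aligned with STAR to mm10, gene counts quantified in Partek Flow against RefSeq, and TMM scaling, and the authors deposited values in CPM. The second table was deposited by the authors in the same unit plus 1, so 1 was subtracted. How its values were made beyond the build mm10 in the submitters' processing notes is not given in the sources used here. The first table lists genes with a read in every library. Reads on the listed genes were estimated from the CPM worth of 1 read, and 81.5 to 85.8% of values under 1 CPM were whole multiples of it (tolerance 0.02), too few to recover counts. Intervals and floors cover counting error only.

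Each table was fitted alone with limma 3.58.1 (R 4.3.3) on log2(CPM + 1), all groups in one model with a trend, genes averaging 1 CPM or more, and Benjamini-Hochberg adjustment over 12487 or 12555 genes. The script was tested on simulated data. Libraries are 1 mouse each in the first table, and for the second no source says so, so p-values there measure the spread between these samples. Values after ± are SE for log2 differences, and SD where stated. Start-site sequences are from RefSeq (GRCm38.p6), and exon lengths from GENCODE M21. Other genes were named by a rule, namely up to 4 called genes per list with the largest change at MI 4 h or Luc 4 h against sham, and the 3 genes most alike to Atf3, Fosl1, Egr1 and Jund. Some genes that this rule names are not reported here. The members and lists were chosen with earlier results of these data known. Alternatives changed the pseudocount, filter, model, trend, weights, scaling and libraries used.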

Additional observations from a re-analysis of the deposited data

Results flagged for a closer look

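In the AC libraries at 48 h, Fosl1 was at 0.609 CPM in replicate 1 and at 1.54 to 1.72 CPM in the other 3, a gap of 0.837 of the group's range. It was the only outlying value among 50 sets of 4 libraries checked (5 groups and 10 members), where chance alone would mark about 1 in 20.

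Members whose level differed between times by limma's test of that difference were also marked. From 4 h to 24 h without injection the differences in log2(CPM + 1) were -1.56 for Fos, -1.28 for Fosb, 3.89 for Fosl1, 0.62 for Fosl2, -0.62 for Jun, 0.61 for Jund, -1.24 for Egr1 and 1.40 for Egr2. From 4 h to 24 h with Luc modRNA they were -2.62 for Atf3, -1.98 for Fos, -2.46 for Fosb, -0.72 for Jun and 1.16 for Junb. From 24 h to 48 h with Luc they were -1.68 for Fosb, -0.56 for Jun, -2.02 for Junb and -2.62 for Egr1. Whether the courses of the uninjected and injected hearts differ from each other was not tested, since the tables were normalized separately.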

How the results depend on the processing

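Of 57 called differences in members, refitted 830 times in all under the alternatives, 793 refits kept direction and call, 37 lost the call and 0 reversed. Of 73 differences not called, 42 of 1273 refits became calls in the same direction, and 98 changed sign without a call. With weights per library the number of members called was 3 for Luc 48 h against sham (7 as reported), 7 for Luc 48 h against Luc 24 h (4 as reported), 2 for AC against Luc at 48 h and 2 for its change from 4 h (0 as reported). With the compared groups alone it was 2 for Luc 48 h against Luc 24 h. Leaving out 1 library gave 8 members for MI 4 h, 10 for MI 24 h, 6 to 8 for MI 24 h against 4 h, 7 to 8 for Luc 4 h, 7 to 9 for Luc 24 h and 4 to 7 for Luc 48 h against sham, 3 to 5 for Luc 24 h against 4 h, 3 to 7 for Luc 48 h against 24 h, and 0 for AC against Luc at 4 h and 24 h and 0 to 2 at 48 h.

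Whether library numbers and letters pair the samples is not given in the sources used here. Correlations of same-numbered deviations ran from -0.206 to 0.345. Each comparison shared only 2 to 4 numbers or letters, too few for this check to decide. The refits with numbers and letters as a replicate block kept only libraries whose number or letter both groups share. For MI 24 h, MI 24 h against 4 h and Luc 4 h that left 2 per group. In these refits, 10 members were called for MI 24 h, 7 for MI 24 h against 4 h, 9 for Luc 4 h against sham, and 0 for AC against Luc at each time. The calls gained or lost were those of Fosb, Jun and Junb (above) and of Fosl1 and Fosl2 at Luc 4 h (1.70 and 1.31). Over all genes, the calls ranged between the alternatives from 105 to 2500 around 296 for MI 4 h, from 52 to 580 around 194 for Luc 4 h, from 1684 to 4577 around 4275 for Luc 24 h, from 1504 to 3998 around 3774 for Luc 48 h, and from 258 to 3178 around 1926 for AC against Luc at 48 h. For MI 24 h against sham and against 4 h they ranged from 5316 to 9109 around 8236 and from 5173 to 8753 around 7976, for Luc 24 h against 4 h from 2548 to 6147 around 4058, and for Luc 48 h against 24 h from 3654 to 6698 around 5258. For AC against Luc they ranged from 1 to 6 around 1 at 4 h and from 0 to 6 around 1 at 24 h, and for the change of that difference from 1 to 3 around 1 and from 103 to 1621 around 421. The causes were not tested. Depth limits Fosl1 in the sham libraries, at 0 to 1 read each.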
